A study of Mus musculus with 8 samples.

Results

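The replication-dependent histone genes supply the bulk of the core and linker histones that package newly copied DNA. Accessibility at 67 of them was examined here in MPP3 and MPP4 cells, multipotent progenitors of mouse bone marrow that carry a myeloid and a lymphoid bias, respectively. Members were the GENCODE vM21 protein-coding genes whose symbol starts with Hist1h, Hist2h, Hist3h or Hist4h, 67 of the 20807 protein-coding genes on the 19 autosomes present in the tables. They comprised 6 H1, 18 H2A, 18 H2B, 12 H3 and 13 H4 genes. A peak was assigned to a gene when its centre lay within 1 kb of one of the gene's annotated transcript starts, and such a peak is a TSS peak below.

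The series holds 8 ATAC-seq libraries, an assay in which the Tn5 transposase cuts and tags open DNA, with 2 libraries for each genotype of each cell type. The MPP3 gate was LSK+ (lineage-negative, Sca1-positive and c-Kit-positive) CD150- CD48+ and the MPP4 gate added Flt3+, after depletion of cells bearing CD3, B220, CD11b, Gr1 or Ter119. All mice were C57BL/6. The 4 Ebf1-WT libraries were labelled Ebf1fl/fl Tie2Cre +/+, so that the controls carried the floxed allele without Cre, and the 4 Ebf1-KO libraries Ebf1fl/fl Tie2Cre +/cre. The design text of the series instead describes the controls as Ebf1-wt with Tie2Cre, and the study's methods name both floxed and Cre-carrying littermates as controls for this strain, without saying which kind gave these libraries. Cre under the Tie2 (Tek) promoter acts in endothelial and blood cells generally, so the deletion was not limited to the progenitors sorted. In MPP3, both Ebf1-WT mice were 8 weeks old and the Ebf1-KO mice 8 and 9 weeks old, all female. In MPP4, both Ebf1-WT mice were 9 weeks old, 1 male and 1 female, and both Ebf1-KO mice were 8 weeks old and female. Genotypes were not compared here: the value used for each peak is its mean log2 CPM (counts scaled to a fixed library total, on a log2 scale) over the 4 libraries of a cell type, both genotypes together, so no value below has a replicate error, and no test could be made. The labels state a target read depth, but the number of fragments counted in each library is unknown from these values. As a check of the labels, the TSS peak of Flt3, the receptor in the MPP4 gate, stood at a mean log2 CPM of 5.92 in MPP3 and 7.01 in MPP4. Kit (mean log2 CPM of 5.54 and 5.63) and Cd34 (4.76 and 5.16) had TSS peaks in both, and Cd3e and Ly6g had none. Ly6a, which encodes the gate marker Sca1, had no TSS peak in MPP3 and one at a mean log2 CPM of 1.15 in MPP4. The B-cell genes Cd79a and Ms4a1 had TSS peaks in MPP3 only, at mean log2 CPM values of 3.04 and 2.18, and Itgam, which encodes the depleted marker CD11b, had one of 2.85 in MPP3 and 3.16 in MPP4.

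These genes differ from almost every other protein-coding gene. They sit in clusters, lack introns as a rule, are transcribed in S phase of the cell cycle, and their mRNAs end in a short stem-loop in place of a poly(A) tail. NPAT, switched on by cyclin E and CDK2, and FLASH (Casp8ap2) gather at the clusters in the histone locus body, HINFP drives H4 promoters, and SLBP binds the stem-loop. H2A and H2B genes are often arranged head to head, with a shared stretch of DNA between their starts, and H1 promoters carry a sequence known as the H1 box. Histone variants such as H2A.Z and H3.3 are instead made outside S phase as well, from scattered genes.

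The sequences below are the promoters of the genes with the highest peaks of each class, plus a testis-type H1 gene with no peak, from the GRCm38 (mm10) assembly as distributed by RefSeq. Each is the 250 bases before the annotated start, or the bases between the starts of a divergent pair, read 5′ to 3′ on the strand given. Capitals mark matches on either strand to TATAAA, read by the TATA-binding protein, to CCAAT, the site of NF-Y, to the octamer ATTTGCAT, bound by Oct1, to the H1 box AAACACA, to GGTCCG, letters of the H4 site II element, and to the E2F-type letters TTTNNCGC. The pair Hist1h2ac and Hist1h2bc had the highest peak of all, and its shared stretch at chr13:23683949-23684198 (plus strand) held an octamer, a TATA box and 3 CCAAT boxes.
Hist1h2ac, Hist1h2bc: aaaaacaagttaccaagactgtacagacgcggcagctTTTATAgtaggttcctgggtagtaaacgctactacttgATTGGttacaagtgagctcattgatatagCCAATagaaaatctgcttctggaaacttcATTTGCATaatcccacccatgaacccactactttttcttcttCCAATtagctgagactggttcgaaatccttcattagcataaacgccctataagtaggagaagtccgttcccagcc
Hist1h4h, the H4 gene with the highest peak, has its promoter at chr13:23530800-23531049 (plus strand), with GGTCCG beginning at position −11 from the start and neither a CCAAT nor a TATA match.
Hist1h4h: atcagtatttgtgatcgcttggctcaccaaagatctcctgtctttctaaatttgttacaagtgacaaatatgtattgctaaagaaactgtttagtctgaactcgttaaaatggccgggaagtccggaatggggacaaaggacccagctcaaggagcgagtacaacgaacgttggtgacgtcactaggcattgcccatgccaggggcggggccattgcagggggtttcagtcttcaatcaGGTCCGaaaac
Hist1h3a, the H3 gene with the highest peak, has its promoter at chr13:23762387-23762636 (minus strand), with TATAAA beginning at position −31, CCAAT at −95 and −53, and matches to the H1 box letters at −229 and −165.
Hist1h3a: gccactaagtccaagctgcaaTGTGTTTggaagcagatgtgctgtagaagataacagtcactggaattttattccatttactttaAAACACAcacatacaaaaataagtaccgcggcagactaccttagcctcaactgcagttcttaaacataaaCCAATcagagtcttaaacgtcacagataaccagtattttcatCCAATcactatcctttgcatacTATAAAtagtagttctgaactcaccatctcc
Hist1h1c (chr13:23738558-23738807, plus strand) is the H1 gene with the highest peak, and Hist1h1t (chr13:23695564-23695813, plus strand) is the H1 gene of the testis, which had no TSS peak. Both held an H1 box, beginning at positions −113 and −117 from the start, and a CCAAT box, at −55 and −68.
Hist1h1c: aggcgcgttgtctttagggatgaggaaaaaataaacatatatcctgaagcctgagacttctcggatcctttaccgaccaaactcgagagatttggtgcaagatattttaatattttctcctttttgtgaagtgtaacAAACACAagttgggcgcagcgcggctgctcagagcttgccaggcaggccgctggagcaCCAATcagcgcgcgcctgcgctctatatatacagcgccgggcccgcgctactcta
Hist1h1t: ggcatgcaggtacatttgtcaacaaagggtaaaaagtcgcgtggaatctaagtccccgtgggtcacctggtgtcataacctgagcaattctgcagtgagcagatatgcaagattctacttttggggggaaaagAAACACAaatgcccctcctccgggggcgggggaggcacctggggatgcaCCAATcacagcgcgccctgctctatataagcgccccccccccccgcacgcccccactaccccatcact

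At the other end of the genes, a stem-loop was searched for within 150 bases after the stop codon as 6 paired bases beginning GG and ending CC around a loop of 4 bases beginning TTT, on the strand of the gene. It was found in 63 of 67 histone genes, 22 to 59 bases after the stop codon (median 31), and in 4 other protein-coding genes of all 20807. The 16 bases had 6 forms, and the 3 commonest are shown with the loop in capitals. The first was shared by 41 genes, among them all H1 genes but Hist1h1t. The second was found in 9 genes, including the testis-type Hist1h1t and Hist1h2ba. The third was found in 8 genes, all of them H4.
Form 1: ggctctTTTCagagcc
Form 2: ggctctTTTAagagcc
Form 3: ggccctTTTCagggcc
No perfect stem of this form was found after Hist1h2an, Hist2h2be, Hist1h3g and Hist1h4a. Searching at the annotated gene end instead found it in 40 histone genes, a choice of window made with the data in view.

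Of the 67 histone genes, 59 (88.1%) had a TSS peak in MPP3, and the same 59 had one in MPP4. Over all protein-coding genes the share was 67.5% in MPP3 (14048 genes) and 67.3% in MPP4 (14004 genes). All 12 H3 and all 13 H4 genes had a TSS peak, as did 15 of 18 H2A, 15 of 18 H2B and 4 of 6 H1 genes. No histone gene had a TSS peak in 1 cell type only. Some peaks served more than 1 gene (12 in MPP3 and 14 in MPP4), and 13 genes in MPP3 and 14 in MPP4 had 2 or more peaks, which left 59 distinct TSS peaks in MPP3 and 60 in MPP4, among 20117 and 20283 TSS peaks of protein-coding genes and 87642 and 86952 peaks in all. Measured from each peak to the closest histone start, the farthest peak counted in MPP3 was one 969 bp from the start of Hist1h1c, and the nearest one not counted lay 1036.5 bp from the start of Hist1h1b.

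Histone TSS peaks lay high among promoter peaks in both cell types. Their median was a mean log2 CPM of 5.72 in MPP3 and 5.61 in MPP4, beside 3.78 and 3.71 over all TSS peaks. In bulk cells, a site open more often in each cell and a site open in more of the cells cannot be told apart. Histone TSS peaks were also longer, with a median of 461 bp in MPP3 and 476.5 bp in MPP4 against 377 and 364 bp, so levels are compared between genes per kb of peak. On that scale the median was a log2 CPM per kb of 6.71 in MPP3 and 6.57 in MPP4, against 5.18 and 5.15 over all TSS peaks. The median histone TSS peak thus ranked at the 88.0th percentile of TSS peaks in MPP3 and at the 87.9th in MPP4. In MPP3, 57 of 59 lay above the median TSS peak, 51 in the top 25% and 25 in the top 10%. In MPP4 the counts were 58, 54 and 24 of 60. With 0.0673% of the peaks in MPP3 and 0.0690% in MPP4, they held 0.319% and 0.300% of the summed CPM.

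**Figure D1:**
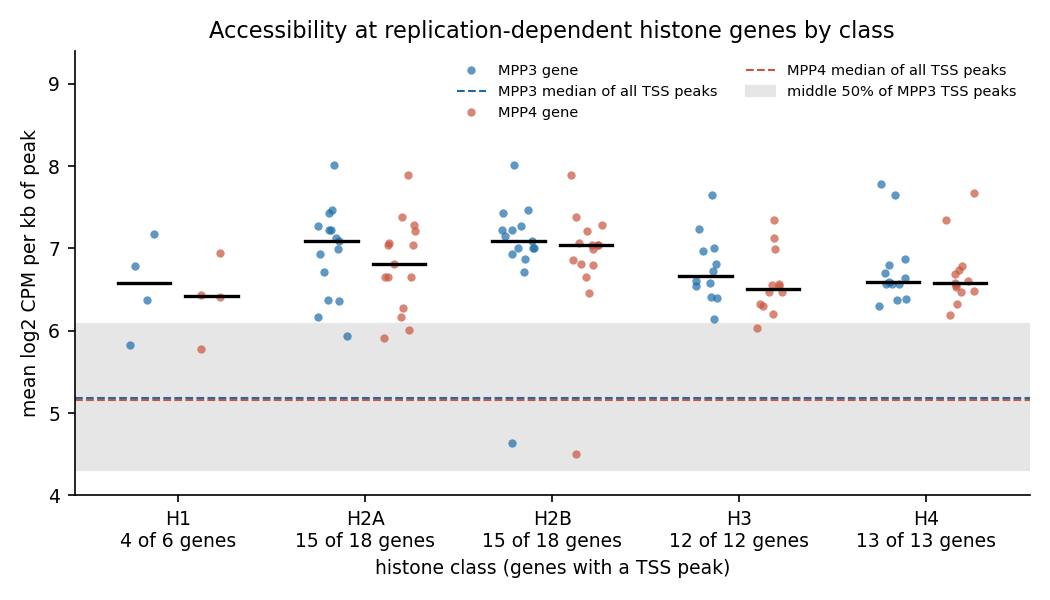
Mean log2 CPM per kb of the highest TSS peak of each histone gene, by class, with MPP3 in blue and MPP4 in red, 1 point per gene. Black bars are class medians, dashed lines are the medians of all TSS peaks and the grey band is the middle 50% of MPP3 TSS peaks; in MPP3 the class medians run from 6.58 (H1) to 7.09 (H2A and H2B), all above the band, and the H2B gene Hist3h2ba lies lowest at 4.63.

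Core histone genes of the H2A and H2B classes, whose products form the dimers that flank the H3–H4 tetramer in the nucleosome, had the highest class medians over genes, with peaks shared by an H2A and an H2B gene counted in both. For H2A the median over genes was a log2 CPM per kb of 7.09 in MPP3 and 6.81 in MPP4, and for H2B it was 7.09 and 7.04. H3 genes had medians of 6.66 and 6.51 log2 CPM per kb, H4 genes 6.59 and 6.57, and the linker histone H1 genes 6.58 and 6.42. Counted by matched peaks, those assigned to H2A genes only had a median of 6.37 log2 CPM per kb in MPP3 and 6.22 in MPP4 (6 peaks), below the peaks of H1 (6.78 and 6.43), H3 (6.59 and 6.47) and H4 genes (6.57 and 6.53), whereas the 9 peaks shared by H2A and H2B genes had 7.22 and 7.06. The ranges of the classes overlapped, and with no error on the values the order of neighbouring classes cannot be tested.

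Among H2A and H2B genes, the pair Hist1h2ac and Hist1h2bc stood first at a log2 CPM per kb of 8.01 in MPP3 and 7.89 in MPP4, from 1 shared peak at the 99.3rd percentile of MPP3 TSS peaks. Hist1h2ae and Hist1h2bg, also head to head, followed with 7.46 and 7.39 log2 CPM per kb. The lowest H2A genes were Hist3h2a, at 6.17 log2 CPM per kb in each cell type, and Hist2h2ab, at 5.93 and 5.92. Hist3h2ba was the lowest of all members, at 4.63 log2 CPM per kb in MPP3 and 4.50 in MPP4, below the median of all TSS peaks. Its neighbour on chromosome 11, Hist3h2a, starts within 8 kb of it.

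The highest H4 gene was Hist1h4h, at a log2 CPM per kb of 7.78 in MPP3 and 7.68 in MPP4, and Hist1h4a came next at 7.65 and 7.35. Hist4h4, which stands alone on chromosome 6, had 6.37 and 6.49 log2 CPM per kb, and Hist1h4k was lowest at 6.30 and 6.19. The highest peak assigned to Hist1h3a, which ranked first among H3 genes, is also that of Hist1h4a and was centred 985 bp downstream of the start of Hist1h3a in MPP3. The peak at its own start had 7.27 log2 CPM per kb in MPP3 and 7.24 in MPP4. Hist1h3g followed with 7.23 and 7.12 log2 CPM per kb. Hist2h3b was lowest among H3 genes at 6.14 and 6.04, below Hist1h3c at 6.39 and 6.33.

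Of the H1 genes, Hist1h1c had the highest level, 7.18 log2 CPM per kb in MPP3. In MPP4 its highest peak, 6.95 log2 CPM per kb, was one centred 974.5 bp into the gene, and the peak closest to its start had 6.90. Hist1h1e had 6.78 log2 CPM per kb in MPP3 and 6.43 in MPP4, Hist1h1a had 6.38 and 6.41, and Hist1h1b was lowest with 5.82 and 5.78.

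**Figure D2:**
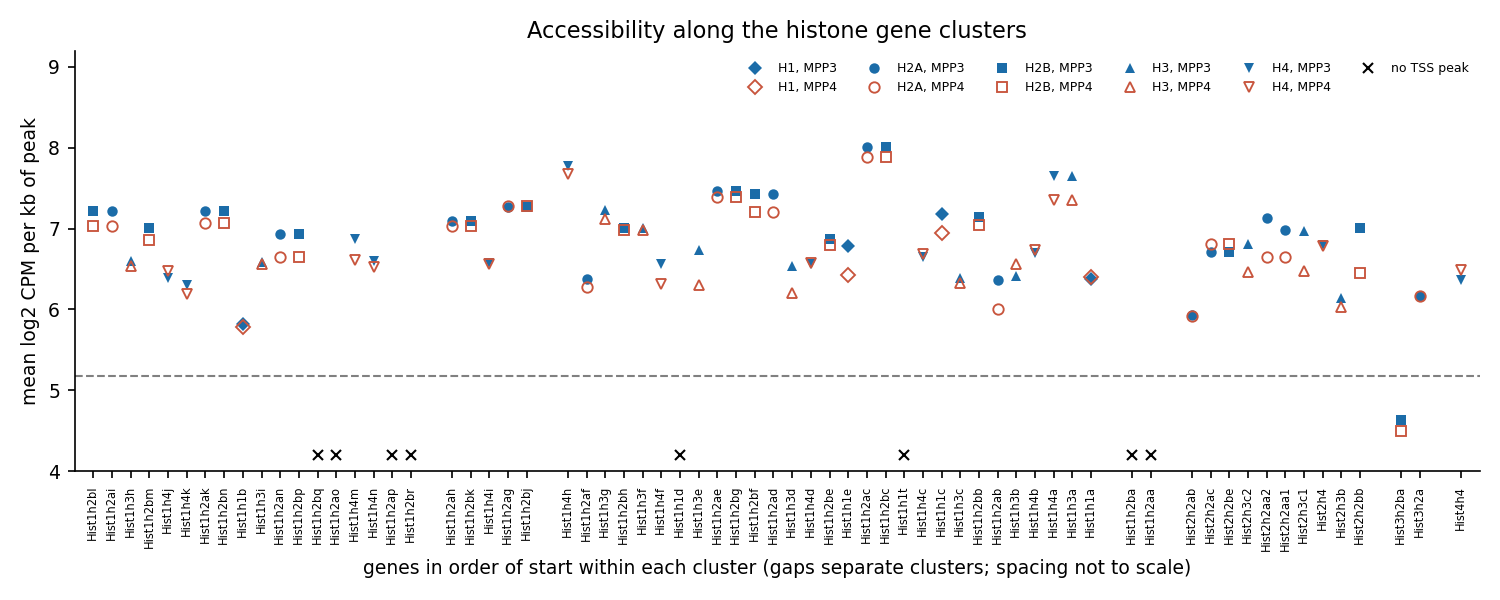
Mean log2 CPM per kb of the highest TSS peak of each of the 67 histone genes (vertical axis) in the order of their starts within each cluster (horizontal axis, spacing not to scale), filled blue for MPP3 and open red for MPP4, with the marker shape giving the class. Crosses mark the 8 genes without a TSS peak and the dashed line the median of MPP3 TSS peaks (5.18); all genes with a peak but Hist3h2ba lie above that line.

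The genes fall into 7 groups separated by more than 100 kb. The largest held 29 genes in 233.357 kb of chromosome 13, from Hist1h4h to Hist1h1a, of which 27 had a TSS peak. Within this group, 12 further peaks in each cell type were not TSS peaks of a histone gene. Those had medians of 4.42 log2 CPM per kb in MPP3 and 4.82 in MPP4, against 6.87 and 6.88 for the histone TSS peaks of the same group. A second group of 18 genes on chromosome 13 (Hist1h2bl to Hist1h2br) had 14 with a TSS peak, and a group of 5 genes in 8.513 kb (Hist1h2ah to Hist1h2bj) had 5 of 5. On chromosome 3 all 10 Hist2 genes had a TSS peak. The Hist1 genes together had a median of 6.97 log2 CPM per kb in MPP3 and 6.83 in MPP4, and the Hist2 genes 6.80 and 6.56.

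Peaks were centred close to the starts. The peak closest to each histone gene had a median offset of −27.5 bp in MPP3 and −23 bp in MPP4, where negative is upstream, and the median over protein-coding genes was −16.5 and −19 bp. It lay within 250 bp of the start in 56 of 59 histone genes in MPP3 and 55 of 59 in MPP4, against 89.5% and 89.3% of protein-coding genes with a TSS peak. Position differed by class: in MPP3 the median offset of the closest peak was −130 bp for H2B, −80 bp for H2A, −7.5 bp for H3, 44.5 bp for H4 and 98 bp for H1. A peak covered the annotated start itself in 58 of 59 histone genes (98.3%), against 74.8% of protein-coding genes in MPP3. Genes were counted here if a peak lay near any of their annotated starts, and the part of alternative starts in this contrast was not tested. Farther out, 22.0% of the histone genes were covered by a peak 1250 bp upstream in MPP3, against 3.67% of protein-coding genes.

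**Figure D3:**
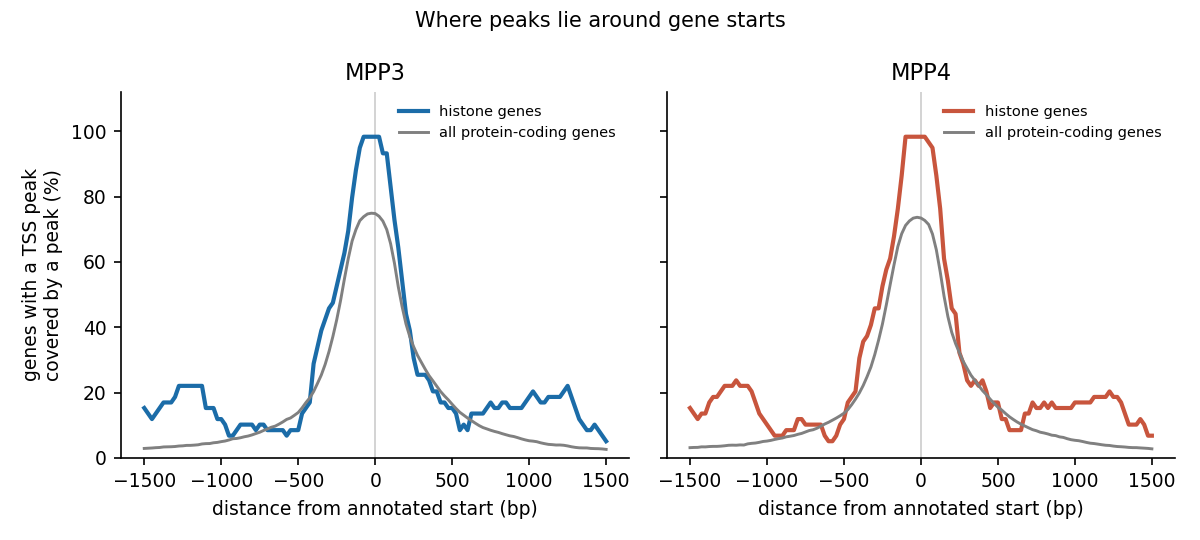
Percent of genes with a TSS peak (vertical axis) that a peak covers at each distance from the annotated start (horizontal axis, bp, negative upstream), for 59 histone genes in colour and all protein-coding genes in grey, in MPP3 (left) and MPP4 (right). At the start the histone genes reach 98.3% in each cell type, against 74.8% and 73.4% of protein-coding genes in MPP3 and MPP4. The histone curves rise again farther out on both sides and stand at 22.0% at 1250 bp upstream in each cell type.

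Head-to-head arrangement was common, with 26 of the 67 genes in 13 pairs whose starts lay 176 to 660 bp apart (median 279 bp). Of these pairs 12 joined an H2A and an H2B gene, and 1 joined Hist1h2bh and the H3 gene Hist1h3f. In 10 pairs both genes were assigned the same peak in each cell type, and in 9 of these the peak covered both starts. The shared peaks had a median of 7.22 log2 CPM per kb in MPP3 and 7.05 in MPP4. They ranged in MPP3 from 8.01 at Hist1h2ac and Hist1h2bc down to 6.71 at Hist2h2ac and Hist2h2be. The 3 pairs without a peak were Hist1h2bq with Hist1h2ao, Hist1h2ap with Hist1h2br, and the testis pair Hist1h2ba with Hist1h2aa.

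The 8 genes without a TSS peak were of 3 kinds. Hist1h1t, Hist1h2ba and Hist1h2aa encode histones known from male germ cells. The closest peak to Hist1h1t lay 2507 bp from its start in MPP3 and 2553.5 bp in MPP4. For Hist1h2ba it lay 8207.5 bp away in MPP3 and 1351.5 bp away in MPP4, where that peak had a mean log2 CPM of only 0.21. The second kind was Hist1h1d, whose annotated start lies 1828 bp upstream of its start codon. A peak at chr13:23554920-23555517, centred 128.5 bp into its coding sequence, had 6.59 log2 CPM per kb in MPP3, and its MPP4 counterpart had 6.61, within the range of the other H1 genes. The third kind was the 4 genes Hist1h2bq, Hist1h2ao, Hist1h2ap and Hist1h2br, which form a pair of near-identical head-to-head pairs on chromosome 13. Their closest peaks in MPP3 were centred at 1325.5 bp from the start of Hist1h2ao, 1355.5 bp from that of Hist1h2ap and −1619.5 bp from those of Hist1h2bq and Hist1h2br. The annotation also placed the start of Hist1h2be 35138 bp from its start codon, so the level of 6.87 log2 CPM per kb given to that gene in MPP3 is that of a peak near Hist1h1e. A separate peak at chr13:23585761-23586149 covered the start codon of Hist1h2be, with 6.47 log2 CPM per kb in MPP3 and 6.50 in MPP4. The annotated start coincided with the start codon in 13 of the 67 genes.

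Histone genes resemble each other closely in sequence, and reads that fit several places equally well receive a low mapping quality, on which the authors filtered. The share of 50-base words that occur more than once in the genome, within 500 bp of the start, had a median of 29.3% over the 67 histone genes and 0% over protein-coding genes. Some repeated words were present at 59 of the 67 histone genes (88.1%) and at 27.1% of protein-coding genes. The repeats lay more often downstream of the start: the mean share was 51.1% downstream and 22.3% upstream of the histone starts, against 6.72% and 5.44% for protein-coding genes. H2A genes had the highest median share, 45.6%, followed by H2B with 42.4%, H3 with 33.4% and H4 with 20.3%, and the median over H1 genes was 0%. At Hist1h2bq, Hist1h2ao, Hist1h2ap and Hist1h2br, every 50-base word, and every 100-base word, was repeated elsewhere. At the other genes without a TSS peak the share was 0% for Hist1h1d and Hist1h1t, 0.841% for Hist1h2aa and 13.7% for Hist1h2ba. The share for Hist1h1d describes its annotated start, 1828 bp from its start codon. Hist2h3c1 and Hist2h3c2, near-identical H3 genes on chromosome 3 with 94.7% of words repeated at each, both had a TSS peak. Hist1h4m and Hist1h4n, with 94.3% and 95.3% of words repeated, also had TSS peaks. The values of such copies are uncertain. Across the 59 genes with a TSS peak in MPP3, the share of repeated words and the level of the closest peak had a Spearman correlation of 0.44 for log2 CPM per kb and 0.13 for log2 CPM. These genes share peaks and clusters, so the correlation is a description only. The part of repeated sequence in the levels was not tested.

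**Figure D4:**
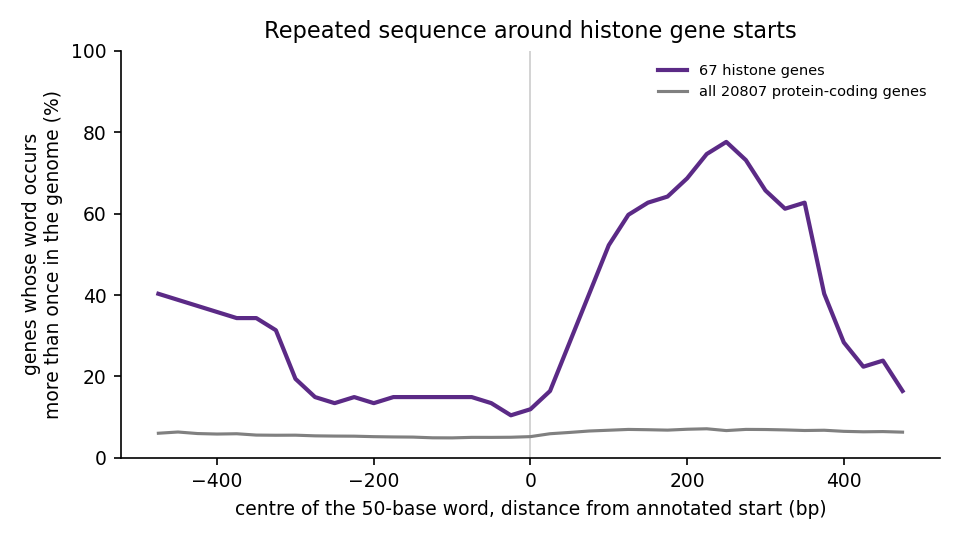
Percent of genes (vertical axis) whose 50-base word at each distance from the annotated start (horizontal axis, bp, negative upstream) occurs more than once in the genome, for the 67 histone genes in purple and all 20807 protein-coding genes in grey. The histone curve stands at 14.9% at 100 bp upstream of the start and reaches its highest point, 77.6%, at 250 bp downstream, where protein-coding genes stand at 6.69%.

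The promoters shared sequence features that the choice of genes did not use. Within 250 bases before and 50 after the annotated start, on either strand, CCAAT was found at 56 of 67 histone genes (83.6%) and at 37.5% of protein-coding genes, and 47 histone genes held it more than once. All 18 H2A and all 18 H2B genes and 11 of 12 H3 genes had CCAAT, but only 4 of 13 H4 genes. CCAAT matches began at a median position of −124.5 from the start. TATAAA was found at 37 histone genes (55.2%) and at 13.4% of protein-coding genes. The octamer ATTTGCAT was found at 15 histone genes (22.4%), of which 7 were H2A and 8 H2B genes, against 1.70% of protein-coding genes. GGTCCG was found at 12 of 13 H4 genes and at 3 of the other histone genes, against 10.4% of protein-coding genes. AAACACA was found at 4 of 6 H1 genes and at 5 of the other histone genes, 3 H2B, 1 H2A and 1 H3 (9 of 67 in all, 13.4%), against 6.44% of protein-coding genes. The E2F-type letters TTTNNCGC were found at 21 histone genes (31.3%) and at 6.32% of protein-coding genes. The EBF1 consensus, searched as TCCCNNGGG or CCCNNGGGA, was found at 1 histone gene (1.49%) and at 7.34% of protein-coding genes. That gene was Hist1h2be, 17 bases after its distant annotated start. Windows at Hist1h1d and Hist1h3f, neither with a CCAAT match, likewise lay at starts annotated 1828 and 433 bp from their start codons. Head-to-head pairs count the same letters for both genes. GC content of the same windows had a median of 45.7% over the histone genes, from 30.7% to 72.7%, and 56% over protein-coding genes. By class, the median GC content was highest for H1 genes (51.2%) and lowest for H3 genes (41.8%). A match is a description of letters and not of a bound site.

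MPP3 and MPP4 levels were set side by side at 58 histone TSS peaks that overlapped between the tables. Because the tables were normalised separately, and each value is a mean over both genotypes, differences are given beside those of all matched TSS peaks and were not tested. The median difference in log2 CPM, MPP4 minus MPP3, was −0.09 over the histone peaks and −0.13 over 17737 matched TSS peaks. The level was lower in MPP4 at 38 of 58 histone peaks (65.5%), near the 65.0% of all matched TSS peaks but below the 79.6% of TSS peaks whose level lay in the middle 50% of histone peaks. All 58 differences lay inside the range from the 5th to the 95th percentile of all matched TSS peaks, −0.81 to 0.72. Against TSS peaks of the same level, in bins of 0.5 log2 CPM, 56 of 58 lay inside that range. Hist2h2bb (0.16) and Hist3h2a (0.14) lay just above the 95th percentile of their bin, also 0.14 when rounded. Both had a longer peak in MPP4, and per kb of peak the differences were −0.56 at Hist2h2bb and 0.00 at Hist3h2a. TSS peaks of the middle 50% of histone levels had a median difference of −0.20, and both comparisons by level were added after the values had been seen. The order of the histone peaks was much the same in both tables, with a Spearman correlation of 0.975 over the 58 peaks and 0.951 over all matched TSS peaks, as a description.

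The 3 largest differences downward in log2 CPM were at H3 genes. Per kb of peak, the largest was instead at the H2B gene Hist2h2bb (−0.56), ahead of Hist2h3c1 (−0.49). Hist2h3c1 had a mean log2 CPM of 5.23 in MPP3 and 4.55 in MPP4, a difference of −0.68. Hist2h3c2 had 4.91 and 4.40 at the peak over its start, a difference of −0.51, and a second peak of Hist2h3c2 had 3.07 and 3.48, the largest difference upward at 0.40. These are the near-identical genes with 94.7% of words repeated. Hist1h3e differed by −0.51 at a second peak, upstream of its start, with a mean log2 CPM of 3.71 in MPP3 and 3.20 in MPP4. The peak over the start of Hist1h3e had 6.43 and 6.06, a difference of −0.37. Upward differences were also seen at Hist3h2ba (3.15 and 3.52, a difference of 0.38) and Hist1h1a (4.44 and 4.75, a difference of 0.31). At these upward differences the peak was longer in MPP4 than in MPP3. Lengths in MPP3 and MPP4 were 233 and 334 bp (second Hist2h3c2 peak), 357 and 509 bp (Hist3h2ba), and 261 and 318 bp (Hist1h1a). Per kb of peak, the differences were −0.12 at the second Hist2h3c2 peak, −0.13 at Hist3h2ba and 0.03 at Hist1h1a. The part of peak length in these differences was not tested. By class, the median difference in log2 CPM was 0.00 over 5 H1 peaks, −0.15 over 6 H2A peaks, 0.03 over 5 H2B peaks, −0.11 over 14 H3 peaks and −0.08 over 17 H4 peaks, and −0.09 over 9 peaks shared by an H2A and an H2B gene.

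**Figure D5:**
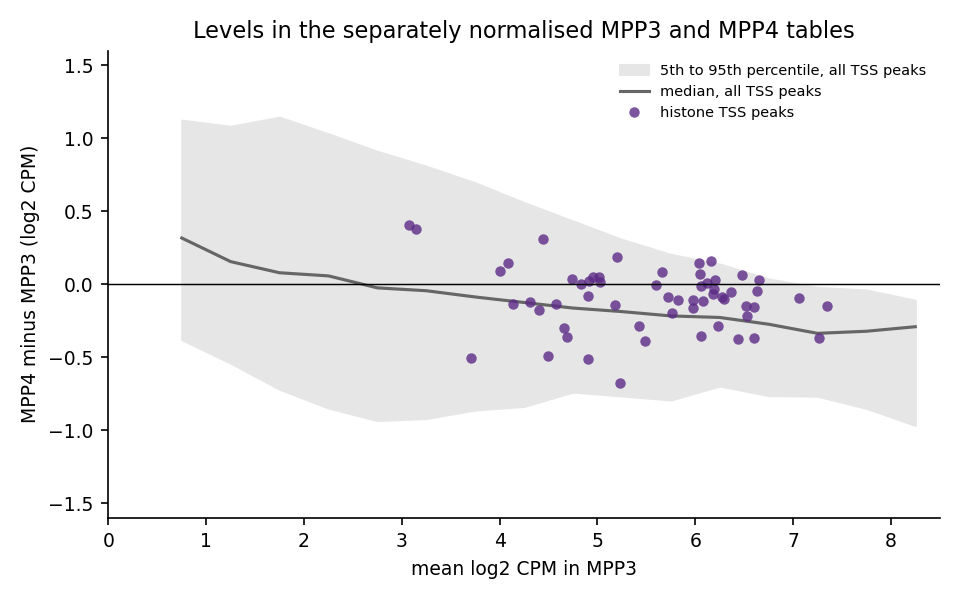
Difference in mean log2 CPM between MPP4 and MPP3 (vertical axis) against the mean log2 CPM in MPP3 (horizontal axis) for the 58 matched histone TSS peaks (purple points), over the median (line) and the 5th to 95th percentile (grey) of all matched TSS peaks in bins of MPP3 level. The histone peaks run from −0.68 to 0.40, and the 2 tables were normalised separately.

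The genes that regulate, process and deliver histones had TSS peaks as well. Over all protein-coding genes the share with a TSS peak was 67.5% in MPP3 and 67.3% in MPP4. All 14 regulators of histone transcription had a TSS peak in each cell type, with a median of 6.96 log2 CPM per kb in MPP3 and 6.70 in MPP4, close to the 6.87 and 6.65 of the histone genes by their highest peak and above the 5.60 and 5.53 of protein-coding genes. Npat had 7.37 log2 CPM per kb in MPP3 and 7.23 in MPP4, Casp8ap2 had 7.26 and 6.97, and Hinfp had 7.43 and 7.22. E2f3, which encodes a transcription factor of the G1-to-S transition, was highest at 8.11 and 8.07 log2 CPM per kb, and E2f4 lowest at 5.01 in each. All 11 autosomal genes for 3′ end formation and stability of histone mRNA had a TSS peak. Their median was lower, 5.95 log2 CPM per kb in MPP3 and 5.58 in MPP4. The median over protein-coding genes was 5.60 and 5.53, so the MPP4 values were close. Among these 11 genes, Slbp, for the stem-loop binding protein, stood highest in MPP3 at 6.99, with 6.76 in MPP4. Ncbp1, for the larger subunit of the cap-binding complex, was lowest at 5.19 and 5.05 log2 CPM per kb. All 8 autosomal genes for histone chaperones and assembly factors had a TSS peak (medians of 6.49 and 6.42 log2 CPM per kb), led by Rbbp4 with 7.64 and 7.19. Of 13 autosomal genes for replication-independent histones, 12 had a TSS peak in MPP3 and 11 in MPP4, with medians of 6.76 and 6.73 log2 CPM per kb. H2afv (7.45 and 7.25) and H3f3b (7.42 and 7.22), which encode forms of H2A.Z and H3.3, were highest in log2 CPM per kb. The oocyte gene H1foo had a TSS peak only in MPP3, at 3.58 log2 CPM per kb, and the testis gene H1fnt had none.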

How the data were processed

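ATAC-seq was performed on sorted MPP3 and MPP4 cells in 8 libraries. Per the labels, the paper's methods and the submitters' processing notes, the authors trimmed reads with cutadapt 2.10, mapped them to mm10, removed duplicates and reads of low mapping quality, kept short fragments with deepTools 3.3.2, identified peaks with MACS2 2.2.7.1 on the merged replicates of each condition, and merged peaks within a cell type. The deposited log2 values are the mean log2 CPM that the authors computed with edgeR 3.32.0 (R 4.0.3) over the 4 libraries of a cell type, with a small prior. A target sequencing depth is stated, but the counts behind each library's values are unknown, so precision could not be computed. The tables also hold the authors' fold changes, F statistics, p-values and adjusted p-values for genotype, which were not used.

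From the peak positions and log2 values, levels per kb of peak, percentiles among TSS peaks, overlaps between tables and repeated words were computed in Python 3.11.15 with pandas 2.3.3 and numpy 2.4.6. Peak starts were shifted to count from 1, and no peak ran past a chromosome end of GRCm38. Peaks matched between tables when they overlapped by at least 1 bp, each MPP3 peak with the MPP4 peak of largest overlap. The start used for motifs, pairs and repeats was that of the principal transcript of shortest span. Assignment, matching and repeat search were tested on simulated data. The genes named were the 2 highest and 2 lowest of each class by level in MPP3, genes without a TSS peak, testis-type genes, the 3 largest differences in each direction and the extreme head-to-head pairs; other genes named were chosen after their values were seen. The members and lists were chosen with earlier results of these data known. Alternatives were other distances, overlaps, filters, scalings and word lengths.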

Additional observations from a re-analysis of the deposited data

How the results depend on the processing

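No paired analysis was possible because the deposited tables hold no values per library, and for the same reason no library could be left out and no level has an error. The number of histone genes with a TSS peak ran from 58 (peak covering a start) to 64 (within 2 kb) in MPP3 and from 58 to 66 in MPP4, and was 60 in each when distances were taken from the start codon. Among all peaks in place of TSS peaks, the median percentile of histone TSS peaks rose to 96.4 in MPP3 and 95.6 in MPP4. With the closest in place of the highest peak of each gene, the median level of histone genes in MPP4 was a mean log2 CPM of 5.96 in place of 6.06. The median MPP4 minus MPP3 difference was 0.04 log2 CPM when centred on the matched TSS peaks and −0.13 when centred on all matched peaks, so its direction depends on the centring, as the alternative's construction shows. With 100-base words, the median share of repeated sequence at histone starts was 17.8% in place of 29.3%. The start codon, closest peak and like-level alternatives were chosen after seeing the data. The other alternatives moved counts by less than 1.5 times and medians by less than the tolerance of 0.1 (log2) or 5 percentile points, taken because no replicate error exists.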
